A study of Rattus norvegicus with 113 samples.

Results

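The comparison described here set rat cortex 12 months after traumatic brain injury (TBI) against cortex 12 months after sham surgery. The arrays were chosen by their titles, which gave 4 TBI arrays, 4 sham arrays and 4 arrays of naive cortex of the same interval, 12 of the 113 arrays of the series. The study followed gene expression in hippocampus and cortex over intervals up to a year after injury, and asked which expression changes persist. All rats were adult male Sprague-Dawley. TBI rats received a parasagittal fluid percussion injury, a pulse of fluid pressure on the intact dura through an opening in the skull. Sham rats went through the same anesthesia and surgery without the pulse, and naive rats were neither anesthetized nor handled. The grade of injury is called moderate in the sample labels and severe in the methods. A single strain and sex were used, the tissue was a whole piece of cortex beneath the injury site, and each array held RNA of 1 biological replicate.

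Immediate early genes encode transcription factors, kinase phosphatases and synaptic proteins whose RNA appears within minutes of neuronal firing or growth factor signalling and is then quickly degraded, so their level reports recent activity. Fos, Egr1 and Arc are widely used as such activity markers in cortex. Oligodendrocytes wrap axons in myelin, a membrane built of a small set of very abundant proteins, and white matter and myelin are known to be vulnerable after brain trauma. Microglia, complement and reactive astrocytes make up the slower inflammatory response of injured brain.

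The single-colour arrays gave a brightness for each probe, here written as log2 signal over the median of the array, so that 0 is the median probe and a difference of 1 is a doubling. Of 45598 probes, 21109 could be tied to 16581 RefSeq genes. A probe was well above background where the scanner software called its signal clearly brighter than the surrounding slide. This held for 57.8% to 59.2% of probes on the sham arrays, for 51.9% to 58.3% on the TBI arrays and for 50.8% to 55.5% on the naive arrays. The TBI arrays lay 3.50 percentage points below the sham arrays on average (55.1 ± 2.89 against 58.6 ± 0.71, SD, n = 4 each; exact permutation test, two-sided p = 0.0857, where the smallest possible p is 0.0286). The deficit was widest on TBI replicates 1 and 4, at 51.9% and 53.6%. No probe was saturated. Arrays of the same group correlated at 0.990 to 0.992 in sham and at 0.985 to 0.989 in TBI cortex, over all probes. All 8 sham and TBI arrays were on the same slide, sham in its first column and TBI in its second, so column and group cannot be told apart. The naive arrays were on another slide, so for naive cortex slide and group cannot be told apart. Markers of neurons, astrocytes, microglia, oligodendrocytes and endothelium were well above background on all 12 arrays, as were 5 of 6 markers of cortical excitatory neurons.

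No probe separated TBI from sham cortex at an adjusted p under 0.05. Of 25213 probes tested with limma, 0 passed that limit and 1506 had an unadjusted p under 0.05, which is 5.97% of those tested, with 105 higher and 1401 lower in TBI cortex. The thresholds of the study, a fold change of at least 1.4 with an unadjusted p under 0.05, took in 401 probes (1.59%), 34 higher (0.135%) and 367 lower (1.46%). With each array scaled to its 75th percentile instead of its median, the split was 58 higher and 214 lower. A probe could enter the test by being well above background in 1 group alone. On average more probes were so on the sham arrays. With both groups well above background on all arrays, the split was 31 higher and 174 lower. Without a filter it was 6973 higher and 610 lower, so the direction of the split depended on the filter. Of the 401 probes, 197 were well above background on all 8 arrays. Read at 1 probe for each gene, 11442 genes were tested, and 142 of them passed the thresholds of the study (1.24%), 128 lower (1.12%) and 14 higher (0.122%). No gene named here had an adjusted p below 0.813, so the lower and higher levels below are descriptions of these 8 arrays. Without sham replicate 4 the probes past the thresholds of the study numbered 776, and without TBI replicate 1 they numbered 607. Differences are given as log2 with the standard error of limma (SE). Where the levels of the 8 arrays are given and the groups overlap, the two-sided p of an exact permutation test over the 70 splits of the arrays is added. It takes the arrays as unpaired, and so does the limma model. Where the groups do not overlap that p is 0.0286, the smallest possible. In a piece of tissue, fewer cells of a type and less RNA in each cell cannot be told apart.

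**Figure D1:**
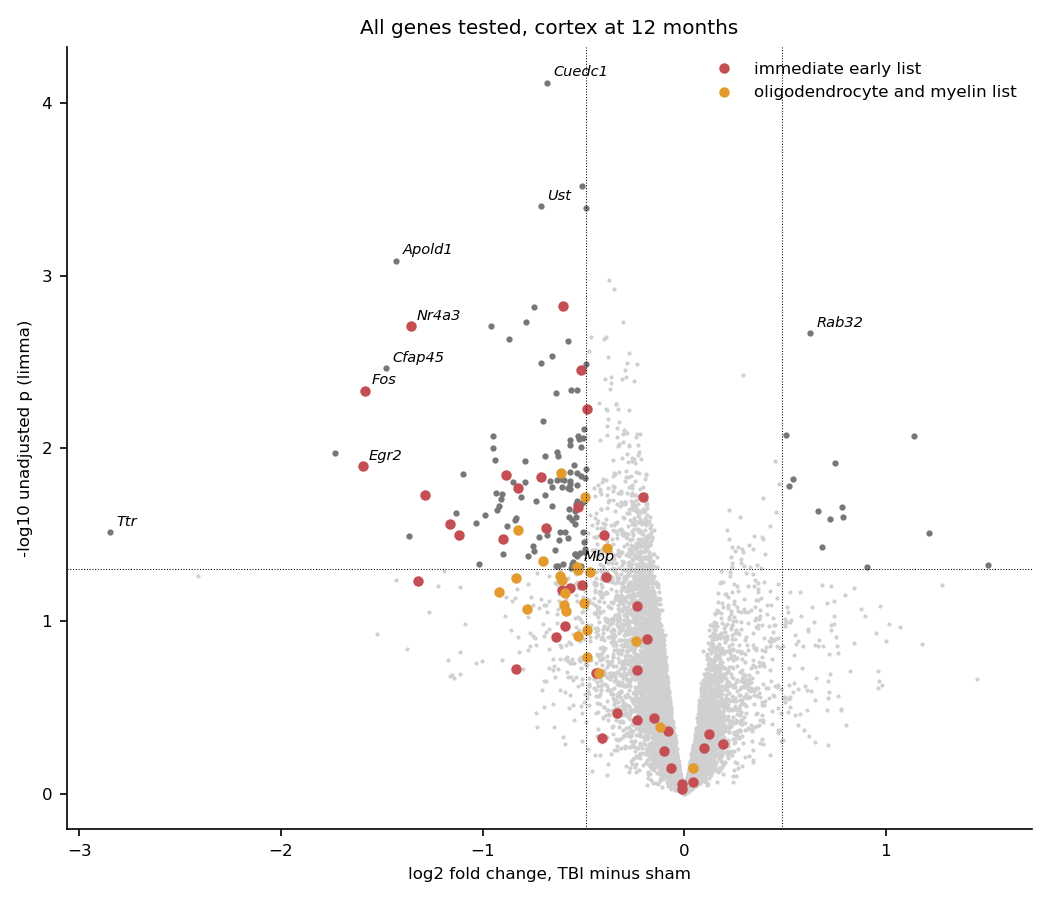
Difference between TBI and sham cortex at 12 months for each of the 11442 genes tested, on the x axis in log2, against the negative log10 of the unadjusted limma p on the y axis; dotted lines mark a fold of 1.4 and a p of 0.05. Dark grey, red and orange points on the left beyond the lines outnumber those on the right, 128 against 14, and the red immediate early genes and orange myelin genes lie mostly to the left of 0.

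The immediate early genes were lower in TBI than in sham cortex as a group. Of 49 genes listed, 48 were on the array and 42 were bright enough to be tested, and 38 of these 42 (90.5%) had a lower mean in TBI cortex, where 68.5% of all genes did. The thresholds of the study were passed by 14 of the 42, all lower, which is 33.3% against 1.12% of all genes. They were the transcription factor genes Fos, Fosl2, Junb, Egr1, Egr2, Nr4a1, Nr4a3, Atf3 and Klf4, the nuclear response gene Ier2, the clock gene Per1, the synaptic gene Arc and the phosphatase genes Dusp1 and Dusp6. The median difference of the 42 genes was -0.49, against -0.05 over all genes tested. This list and the lists below were chosen with earlier results of these data known. Shares such as 33.3% against 1.12% are therefore descriptions only. All 14 but Atf3 were well above background on all 8 arrays. Atf3 was so on 4 sham arrays and 1 TBI array. It thus entered the test through the sham arrays alone, so its call is no support for the share.

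Known control elements of immediate early genes include the CRE and the CArG box. The CRE, bound by CREB, is written TGACGTCA and reads the same on both strands, and the CArG box is the binding element of serum response factor. In the RefSeq promoters of the GRCr8 assembly, searched on both strands over the 250 bases before each gene's start, the CRE stood in 466 of 27457 promoters (1.7%) and the CArG box in 412 (1.5%). Of the 42 tested immediate early genes, 31 had a promoter entry, and 5 of these held the CRE (16.1%) and 4 the CArG box (12.9%). Among the 14 genes past the thresholds 10 had an entry, with the CRE in Ier2 and Dusp1 and the CArG box in Egr1 and Egr2. Their promoters are printed 5′ to 3′ on the gene's strand with these elements in capitals, because they are the members that passed the thresholds and hold an element. They lie at chr18:26736828-26737077, plus strand, for Egr1; at chr20:21054442-21054691, minus strand, for Egr2; at chr10:17184603-17184852, plus strand, for Dusp1; and at chr19:40399123-40399372, plus strand, for Ier2. A match shows only that these letters are there.
Egr1: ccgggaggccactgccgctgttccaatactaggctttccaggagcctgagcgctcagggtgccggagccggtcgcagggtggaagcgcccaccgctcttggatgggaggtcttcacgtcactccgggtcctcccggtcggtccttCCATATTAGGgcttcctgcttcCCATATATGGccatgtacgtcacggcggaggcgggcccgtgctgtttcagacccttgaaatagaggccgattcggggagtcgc
Egr2: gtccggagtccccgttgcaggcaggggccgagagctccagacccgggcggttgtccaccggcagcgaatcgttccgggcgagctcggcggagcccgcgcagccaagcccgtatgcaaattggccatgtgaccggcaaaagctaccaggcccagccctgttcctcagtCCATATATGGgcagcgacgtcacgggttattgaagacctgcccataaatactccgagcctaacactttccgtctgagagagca
Dusp1: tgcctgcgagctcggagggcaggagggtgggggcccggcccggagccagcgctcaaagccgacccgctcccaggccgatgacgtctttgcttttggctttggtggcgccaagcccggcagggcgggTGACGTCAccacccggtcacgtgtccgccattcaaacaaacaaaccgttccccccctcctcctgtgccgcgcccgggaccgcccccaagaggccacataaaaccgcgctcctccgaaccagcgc
Ier2: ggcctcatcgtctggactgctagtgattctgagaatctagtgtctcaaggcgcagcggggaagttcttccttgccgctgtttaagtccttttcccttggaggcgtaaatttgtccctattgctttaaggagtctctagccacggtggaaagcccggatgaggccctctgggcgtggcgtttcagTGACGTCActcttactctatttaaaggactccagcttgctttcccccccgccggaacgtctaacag

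Fos, which forms the AP-1 transcription factor with a Jun partner, stood at 5.70, 5.08, 4.25 and 4.03 in sham replicates 1 to 4 and at 4.12, 3.29, 2.62 and 2.69 in TBI replicates 1 to 4. TBI replicate 1 lay above the lowest sham array and the other 3 lay below every sham array. The difference was -1.58 (SE 0.45, exact permutation p = 0.0571), a 2.99-fold lower mean. Naive cortex had Fos at 4.54, 5.58, 3.97 and 4.96, in the range of the sham arrays. Junb, an AP-1 partner, was 5.95, 5.69, 4.71 and 4.68 in sham and 4.77, 4.55, 3.91 and 4.21 in TBI cortex. Only TBI replicate 1 reached into the sham range, and the difference was -0.90 (SE 0.37, exact permutation p = 0.0857). Fosl2, a slower relative of Fos, differed by -0.52 (SE 0.20), and its other 2 probes differed by -0.59 and -0.72.

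Among the zinc finger factors, Egr1 stood at 5.19, 5.13, 4.12 and 4.82 in sham and at 4.32, 4.12, 3.89 and 3.39 in TBI cortex. The groups overlapped through sham replicate 3, which lay below TBI replicate 1 and level with TBI replicate 2. The difference was -0.88 (SE 0.31, exact permutation p = 0.0857). Egr2 was 3.04, 1.78, 1.78 and 0.95 in sham and 1.29, 0.44, -0.49 and -0.08 in TBI cortex. TBI replicate 1 lay above sham replicate 4, and the other TBI arrays lay below all sham arrays. The difference of -1.60 (SE 0.54, exact permutation p = 0.0571) came with -2.08 on a second probe of the gene. Egr3 was lower on every TBI array than on any sham array, with a difference of -0.48 (SE 0.14) just short of the 1.4-fold limit.

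The orphan nuclear receptor genes of the Nr4a family differed in size. Nr4a3 was 5.34, 4.55, 4.05 and 3.62 in sham and 3.46, 3.14, 3.02 and 2.51 in TBI cortex, so every TBI array lay below every sham array. The difference was -1.36 (SE 0.34). Nr4a1 was 7.77, 7.32, 6.07 and 6.16 in sham and 6.51, 5.69, 5.22 and 5.43 in TBI cortex, and only TBI replicate 1 reached the sham range. The difference was -1.12 (SE 0.46, exact permutation p = 0.0857). Nr4a2, the third member of the family, did not pass, with -0.41 (SE 0.55).

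Arc, whose protein acts at active synapses to remove glutamate receptors, was 8.45, 8.17, 7.31 and 6.80 in sham and 7.42, 6.57, 6.06 and 6.05 in TBI cortex. TBI replicate 1 lay among the sham arrays and the other 3 lay below them. The difference was -1.16 (SE 0.46, exact permutation p = 0.0857). Dusp6, which dephosphorylates ERK kinases, was 6.37, 6.46, 6.02 and 6.18 in sham and 5.84, 5.71, 5.78 and 5.65 in TBI cortex, with no overlap and a difference of -0.51 (SE 0.14). Dusp1, a phosphatase of the stress kinases, was 6.07, 5.80, 5.14 and 4.97 in sham and 5.05, 5.0, 4.43 and 4.20 in TBI cortex. Its groups overlapped at the lowest sham array, and the difference was -0.82 (SE 0.30, exact permutation p = 0.0857). Ier2 differed by -0.71 (SE 0.25, exact permutation p = 0.0857), Klf4 by -0.69 (SE 0.27) and Atf3 by -1.29 (SE 0.47). Over all settings the difference of Atf3 ran from -1.72 to -0.22.

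Per1, a core gene of the circadian clock that also answers to neuronal activity and glucocorticoids, was 6.96, 6.71, 7.01 and 6.30 in sham and 6.22, 6.03, 6.11 and 6.20 in TBI cortex. The 4 TBI arrays were close together and below all sham arrays, with sham replicate 4 nearest to them. The difference was -0.60 (SE 0.15), and another probe differed by -0.57. Apold1, an early response gene of vascular endothelium that is not on the list, was 3.03, 2.97, 2.55 and 3.23 in sham and 2.06, 1.45, 0.82 and 1.74 in TBI cortex. Every TBI array lay below every sham array, by a mean of -1.43 (SE 0.32), a 2.69-fold lower mean.

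**Figure D2:**
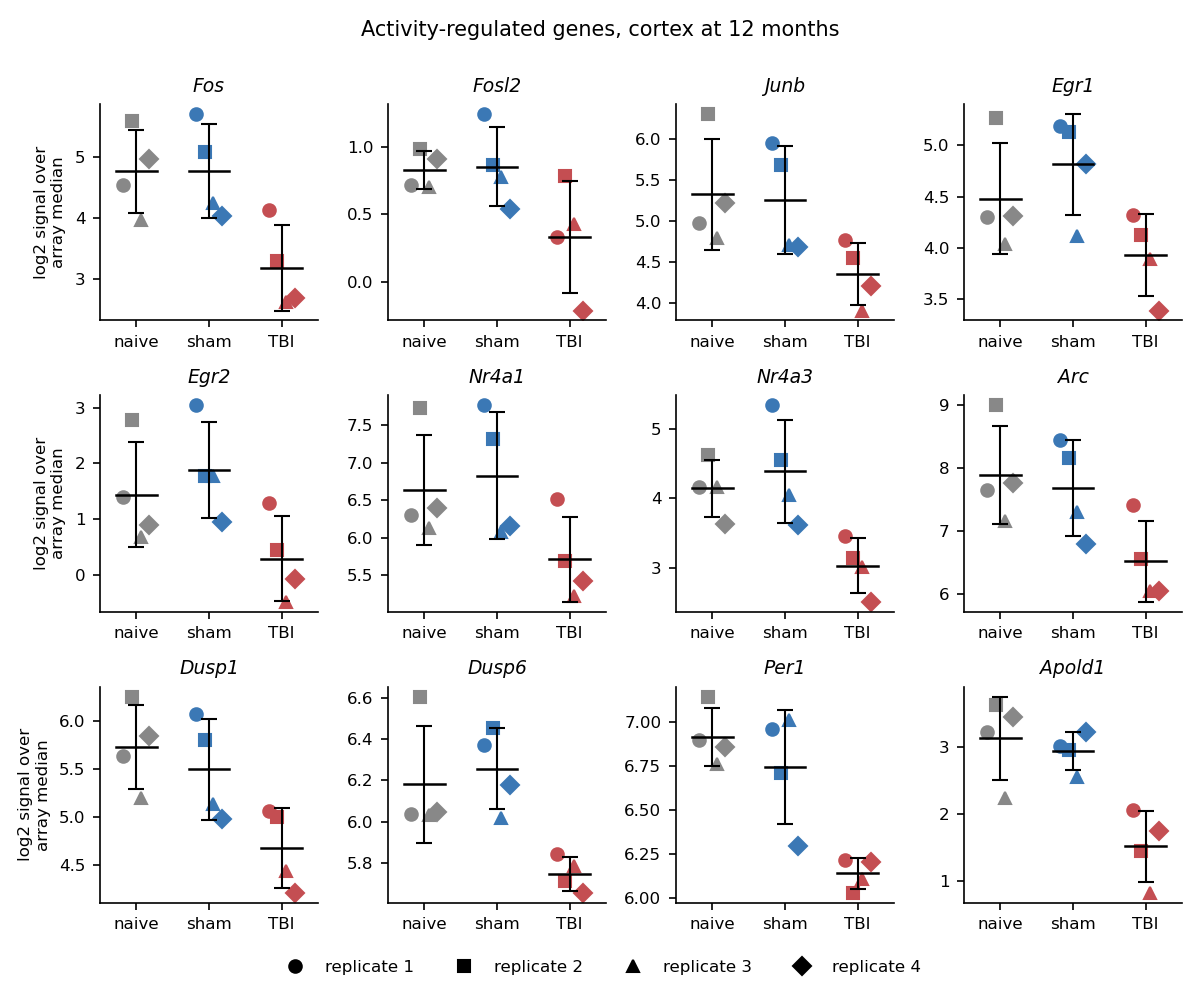
Level of 12 activity-regulated genes on each naive, sham and TBI array, in log2 over the array median; marker shapes give the replicate number, lines the mean and bars the SD of 4 arrays. In Nr4a3, Dusp6, Per1 and Apold1 no TBI array reaches the sham range, while in Fos, Junb, Nr4a1 and Arc TBI replicate 1 does.

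Of the 42 tested immediate early genes, 7 had all 4 TBI arrays below all 4 sham arrays and none the reverse, where 3.92% of all genes had such a gap. Beside Nr4a3, Dusp6, Per1 and Egr3 these were Egr4, Jund and Ier5, with differences of -0.56, -0.20 and -0.18. The spread between sham rats was wide. The median of the list on each array, relative to the mean of each gene over the 8 sham and TBI arrays, was 0.54, 0.35, -0.04 and 0.00 in sham and 0.01, -0.25, -0.35 and -0.27 in TBI cortex. TBI replicate 1 stood level with sham replicates 3 and 4, and each TBI array lay below the sham array of the same number, for the list median as for Fos. In a fit that pairs arrays by replicate number 20 of the 42 passed. That fit passed 460 of all 25213 probes, where the main fit passed 401. Without sham replicate 1 the number past the thresholds went from 14 to 6, and without TBI replicate 4 to 8. The members without a lower level were Ier3 at 0.10, Nptx2 at 0.12, Inhba at 0.19 and Ccn2 at 0.04, none with a p under 0.05, and Bdnf, the neurotrophin gene, differed by -0.10 (SE 0.16).

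Myelin and oligodendrocyte genes were also lower in TBI cortex, but with overlap of the groups in every one of them. All 24 listed genes were tested, 23 had a lower mean in TBI cortex and 5 passed the thresholds of the study (Mbp, Opalin, Fa2h, Olig2 and Enpp2), which is 20.8% against 1.12% of all genes. The median difference was -0.53. In a fit that pairs arrays by replicate number, 13 of the 24 passed, beside 460 of all 25213 probes (401 in the main fit). With the 75th percentile or quantiles in place of the median, 2 of the 24 passed. Without sham replicate 2 or TBI replicate 4 only 1 passed, and without sham replicate 4 the number was 15.

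Mbp, which compacts the layers of myelin, was 11.41, 11.71, 11.29 and 10.81 in sham and 11.22, 10.86, 10.92 and 10.10 in TBI cortex. Its groups overlapped at 3 TBI arrays, and the difference was -0.53 (SE 0.24, exact permutation p = 0.143). Opalin, a surface protein of mature oligodendrocytes, was 6.46, 7.23, 6.48 and 5.80 in sham and 6.02, 6.12, 5.64 and 4.87 in TBI cortex. Sham replicate 4 lay below 2 TBI arrays, and the difference was -0.83 (SE 0.33, exact permutation p = 0.0857). Fa2h, which makes the hydroxylated lipids of myelin, was 5.14, 5.89, 4.93 and 4.60 in sham and 4.80, 4.81, 4.39 and 3.76 in TBI cortex. TBI replicates 1 and 2 lay above the lowest sham array, and the difference was -0.70 (SE 0.31, exact permutation p = 0.114). Olig2, the lineage transcription factor, was 4.56, 5.09, 4.55 and 4.27 in sham and 4.33, 4.21, 4.05 and 3.92 in TBI cortex, with TBI replicate 1 above sham replicate 4. The difference was -0.49 (SE 0.18, exact permutation p = 0.0571).

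Other myelin genes had differences as large without passing. Gjc3, a connexin of oligodendrocytes, differed by -0.92 (SE 0.46), Mobp by -0.83 (SE 0.39) and the master regulator Myrf by -0.61 (SE 0.29). Of genes known as markers of oligodendrocyte progenitors, Pdgfra differed by 0.04 (SE 0.11) and Cspg4 by -0.12 (SE 0.14). The lineage factor gene Olig2 passed with -0.49. Whether progenitor and mature markers differed from each other was not tested. The summed linear level of 5 oligodendrocyte markers, in multiples of the array median, ranged from 2531 to 5119 in sham, from 1525 to 3315 in TBI and from 4142 to 6400 in naive cortex, so that sham and TBI overlapped. In sham and in TBI cortex, replicate 4 was the lowest array for Mbp, Opalin, Fa2h and Olig2.

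**Figure D3:**
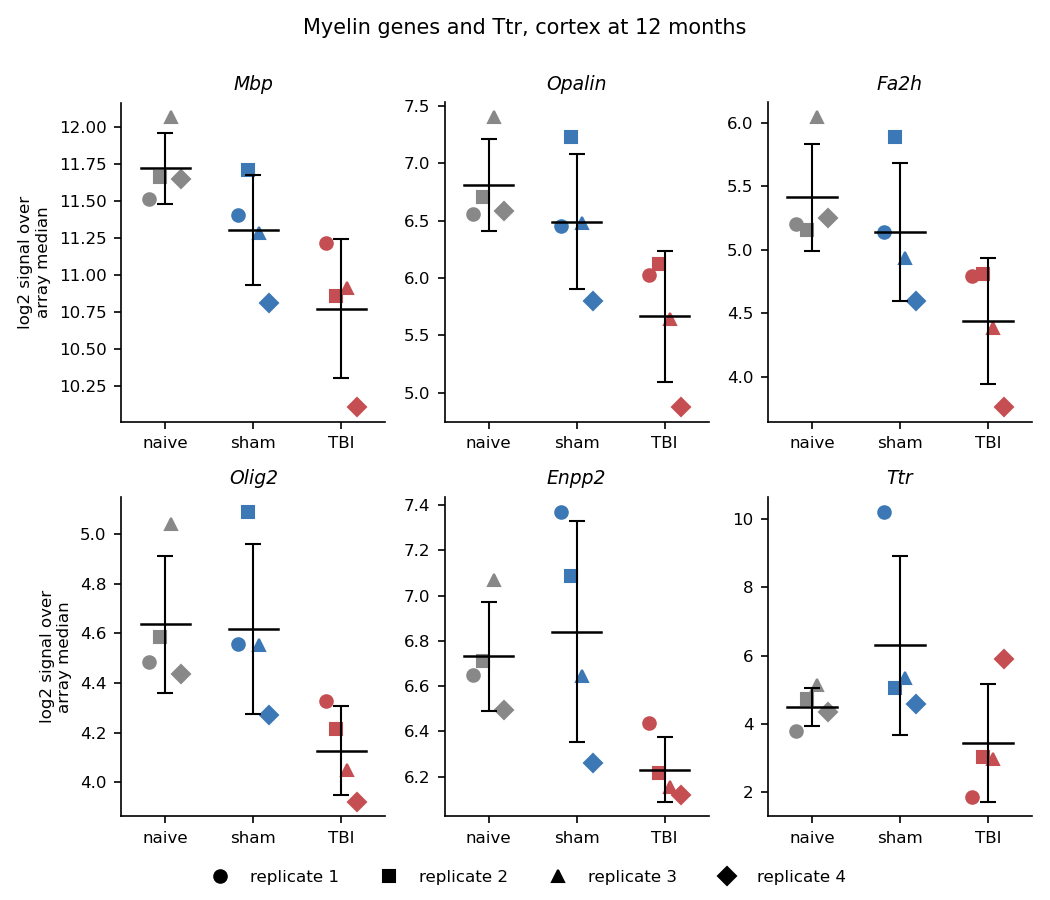
Level of 5 oligodendrocyte genes and of Ttr on each naive, sham and TBI array, in log2 over the array median; marker shapes give the replicate number, lines the mean and bars the SD of 4 arrays. The TBI means lie lowest, but for each gene 1 or more TBI arrays reach the sham range. For Ttr sham replicate 1 at 10.21 and TBI replicate 4 at 5.92 stand above the rest of their groups.

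Enpp2, the gene of autotaxin, which oligodendrocytes and the choroid plexus both make, was 7.37, 7.08, 6.65 and 6.26 in sham and 6.44, 6.21, 6.15 and 6.12 in TBI cortex. The groups overlapped at sham replicate 4, and the difference was -0.61 (SE 0.21, exact permutation p = 0.0571). The choroid plexus, which secretes cerebrospinal fluid and is not part of cortex, can be carried along in a dissection. Its main transcript Ttr was 10.21, 5.05, 5.34 and 4.60 in sham, 1.87, 3.05, 2.97 and 5.92 in TBI and 3.81, 4.73, 5.13 and 4.34 in naive cortex. Sham replicate 1 stood far above all other arrays, and TBI replicate 4 lay above 3 of the sham arrays. The difference of -2.85 (SE 1.16, exact permutation p = 0.114) became -1.54 without sham replicate 1, and Ttr did not pass the thresholds in the fit that pairs arrays. The summed level of 5 choroid plexus markers ranged from 27.0 to 1200 in sham, from 6.01 to 63.4 in TBI and from 18.4 to 37.0 in naive cortex, and only 1 of the 5 was well above background on all 12 arrays. Of 8 tested genes of the choroid plexus list 2 passed the thresholds, both lower (25%), Ttr and Enpp2, with a list median of -0.47. The part of choroid plexus transcripts in the difference of Enpp2 was not tested.

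Cfap45, which encodes a protein inside the microtubules of motile cilia, had the largest difference among named genes without overlap of the groups. It was -0.20, 0.45, 0.26 and -0.60 in sham and -2.55, -0.65, -1.80 and -1.01 in TBI cortex, well above background on all 4 sham arrays and on 1 TBI array. The lowest sham array and the highest TBI array were -0.60 and -0.65, nearly level. The difference was -1.48 (SE 0.40), and -0.44 after the normexp background correction, which pulls dim signals together. The list of ependymal and motile cilia genes had a median of -0.39 over 8 tested genes, with none past the thresholds. Meningeal and fibroblast genes, another tissue that borders cortex, lay the other way, with 14 of 17 higher in TBI cortex and a median of 0.35, none past the thresholds. The median of this list on each array, relative to each gene's mean, was -0.29, -1.05, 0.08 and 0.64 in sham cortex. In TBI cortex it was 0.23, -0.14, -0.22 and 0.61, so the groups overlapped.

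The smallest unadjusted limma p of a named gene belonged to Cuedc1, a gene of a ubiquitin-binding domain protein. It was -0.06, -0.11, 0.02 and 0.07 in sham and -0.96, -0.68, -0.59 and -0.58 in TBI cortex. Both groups were tight and far apart, but only 2 TBI arrays were well above background. The difference was -0.68 (SE 0.11). Ust, which adds sulfate to the uronic acids of chondroitin and dermatan chains, was -0.62, -0.50, -0.58 and -0.60 in sham and -1.18, -1.31, -0.91 and -1.74 in TBI cortex, well above background on 2 TBI arrays. No TBI array reached the sham range, and the difference was -0.71 (SE 0.14). With the normexp correction the difference was -0.14 for Ust and -0.28 for Cuedc1. Ust was the only gene past the thresholds of 30 tested in the proteoglycan sulfation list (3.33%), whose median was -0.09. Since Ust entered the test through the sham arrays alone, its call is no support for that share. Elf1, an ETS transcription factor of blood and vessel cells, differed by -0.50 (SE 0.10), the splicing kinase gene Clk1 by -0.37 (SE 0.09) and the DNA repair nuclease gene Fan1 by -0.35 (SE 0.08), each without overlap. With normexp Elf1 differed by -0.30 and Fan1 by -0.13.

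Cftr, the chloride channel gene, was 2.18, 2.11, 1.79 and 1.72 in sham and 1.32, 0.30, 1.58 and 0.77 in TBI cortex, well above background throughout. TBI replicate 3 came nearest to the sham arrays without reaching them, and the difference was -0.96 (SE 0.24). P2rx7, the ATP-gated channel of microglia, was -0.66, -0.29, -0.68 and -0.66 in sham and -1.17, -1.16, -1.66 and -2.05 in TBI cortex. The groups did not overlap, but only 1 TBI array was well above background, and the difference was -0.94 (SE 0.31), and -0.30 with normexp. Kcng1, a modifier subunit of voltage-gated potassium channels, was 3.54, 3.57, 3.63 and 3.65 in sham and 3.45, 2.17, 3.44 and 2.36 in TBI cortex. TBI replicates 1 and 3 lay just below the sham arrays and the other 2 more than 1 unit lower, with a difference of -0.75 (SE 0.32).

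Of the other genes without overlap, 3 were not well above background on any TBI array, so their fold is only a bound. It was at least 1.24-fold lower for Fam107b, at least 1.12-fold for the immune signalling gene Nfatc2ip and at least 1.01-fold for the germ cell gene Dnd1. C10h17orf75 differed by -1.10 (SE 0.38), Grb7 by -1.02 (SE 0.46), C14h5orf52 by -0.93 (SE 0.35), Lmbrd2 by -0.91 (SE 0.34), Nxpe2 by -0.78 (SE 0.19) and Glcci1 by -0.72 (SE 0.30). Of these, C14h5orf52 was well above background on 1 TBI array and Grb7, Lmbrd2 and Glcci1 on 2. With the normexp correction the differences were -0.25 for Grb7, -0.29 for C14h5orf52, -0.29 for Lmbrd2, -0.41 for Nxpe2 and -0.31 for Glcci1. For the adaptor gene Grb7 the value rested on TBI replicate 4 at -2.92, where the other 3 TBI arrays lay between -0.72 and -0.60 and the sham arrays between -0.50 and 0.02.

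Only 2 named genes were higher in TBI cortex past the thresholds without overlap, where 0.14% of all genes had all TBI arrays above all sham arrays. Rab32, a small GTPase of lysosome-related organelles and mitochondria, was -1.06, -0.62, -0.94 and -0.66 in sham and 0.01, -0.19, -0.57 and -0.02 in TBI cortex. TBI replicate 3 lay just above the highest sham array, and the difference was 0.63 (SE 0.16), and 0.20 with normexp. Spata31d1, a gene named for spermatogenesis, was -1.34, -1.03, -0.58 and -0.62 in sham and -0.42, -0.30, -0.50 and 0.64 in TBI cortex. TBI replicate 4 stood above the others, and the difference was 0.75 (SE 0.25), and 0.28 with normexp.

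Of the inflammatory lists, those of microglia, class 2 MHC and interferon had no member past the thresholds. Since 1.24% of all genes passed, no pass in lists of this size is near that share. Of 26 tested genes of microglia and macrophages none passed the thresholds, and the list median was -0.05, that of all genes. Among 8 tested class 2 MHC genes none passed and the median was -0.03, and among 27 interferon response genes none passed and the median was -0.11. Of 22 complement genes only Cd46, which protects host cells from complement, passed (4.55% against 1.12% of all genes). Cd46 was well above background on 4 sham arrays and 3 TBI arrays. It thus entered the test through the sham arrays alone, so its call is no support for the share. It was 0.31, 0.73, -0.18 and -0.79 in sham and -1.64, -0.50, -0.94 and -0.52 in TBI cortex. Its groups overlapped at the lowest sham array, and the difference was -0.92 (SE 0.35, exact permutation p = 0.0857). Over all settings the difference of Cd46 ran from -1.19 to -0.33. C3, the central complement component, differed by -0.04 (SE 0.36, exact permutation p = 0.914) and C2 by 0.23 (SE 0.18). Of 22 reactive astrocyte genes Lcn2 alone passed (4.55%), with -0.55 (SE 0.25), while the filament gene Gfap differed by 0.52 (SE 0.46).

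Among interleukins, their receptors and adaptors 2 of 39 passed, both lower, which is 5.13% against 1.12% of all genes. Il1rn, the natural antagonist of the interleukin 1 receptor, was 1.00, 1.00, 0.02 and 0.83 in sham and 0.39, 0.19, 0.12 and -0.31 in TBI cortex, overlapping at sham replicate 3, with a difference of -0.61 (SE 0.25, exact permutation p = 0.114). Il15, a growth factor of natural killer and memory T cells, was 0.07, 0.53, 0.94 and 0.46 in sham and 0.18, 0.09, -0.31 and -0.21 in TBI cortex, and differed by -0.56 (SE 0.18, exact permutation p = 0.0857). Its groups overlapped at sham replicate 1. With normexp both Il1rn and Il15 differed by -0.27. Of 20 T cell genes on the array 7 were bright enough to be tested and 2 passed, both lower (28.6% against 1.12% of all genes). They were the chemokine gene Ccl5 with -0.50 (SE 0.18) and Cd8b. Cd8b was well above background on 4 sham arrays and on no TBI or naive array. It thus entered the test through the sham arrays alone, so its call is no support for the share, and no fold is given. Il18 differed by -0.14 (SE 0.21) and Stat3 by -0.17 (SE 0.11), and Il10ra was also well above background on no TBI array.

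Lists of neurons and synapses held near the median of all genes. No pass in lists of these sizes is again near the 1.24% of all genes. Of 52 synapse genes none passed and the median was -0.06, and of 49 axon guidance genes none passed and the median was -0.06. The 19 excitatory and 17 interneuron genes had medians of -0.05 and 0.01 with none past the thresholds, and the 56 respiratory chain genes a median of 0.02. In dopamine and cAMP signalling 1 of 43 passed (2.33%), the delta opioid receptor gene Oprd1, at least 1.05-fold lower and well above background on no TBI array. Oprd1 thus entered the test through the sham arrays alone, so its call is no support for that share. The dopamine receptor genes Drd1 and Drd2 differed by 0.11 (SE 0.30) and -0.12 (SE 0.24). S100b, a calcium-binding protein of astrocytes, was 9.91, 10.04, 10.07 and 10.04 in sham and 9.88, 9.84, 9.87 and 9.85 in TBI cortex. All TBI arrays lay below all sham arrays, yet the gap was small, -0.15 (SE 0.07). Of 40 heat shock genes none passed, and Hspb1 differed by 0.07 (SE 0.19).

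Genes that answer to glucocorticoids and genes of the clock shared Per1 with the immediate early list. The glucocorticoid list shared Dusp1 with it too, so these passes are not separate from those above. Of 25 glucocorticoid-responsive genes 4 passed, all lower (16% against 1.12% of all genes), Per1, Dusp1, Lcn2 and Cdkn1a. The list median was -0.08, against -0.05 over all genes tested. Cdkn1a, the cell cycle inhibitor p21, was 3.63, 3.46, 3.29 and 3.22 in sham and 3.16, 2.69, 2.35 and 3.13 in TBI cortex, without overlap, with a difference of -0.57 (SE 0.19). Of 15 clock genes 2 passed, both lower (13.3%), Per1 and the repressor gene Nfil3, and the median was -0.03. Nfil3 was 3.86, 3.77, 3.31 and 2.94 in sham and 3.07, 2.88, 2.80 and 2.33 in TBI cortex, overlapping at sham replicate 4, with a difference of -0.70 (SE 0.21, exact permutation p = 0.0571). The cell cycle gene Cks2 was higher by 0.45 (SE 0.15), short of the 1.4-fold limit, and the inhibitor gene Cdkn1b was lower by -0.56 (SE 0.25). Fst, the activin antagonist, differed by 0.37 (SE 0.18), and by 0.52 on another probe.

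**Figure D4:**
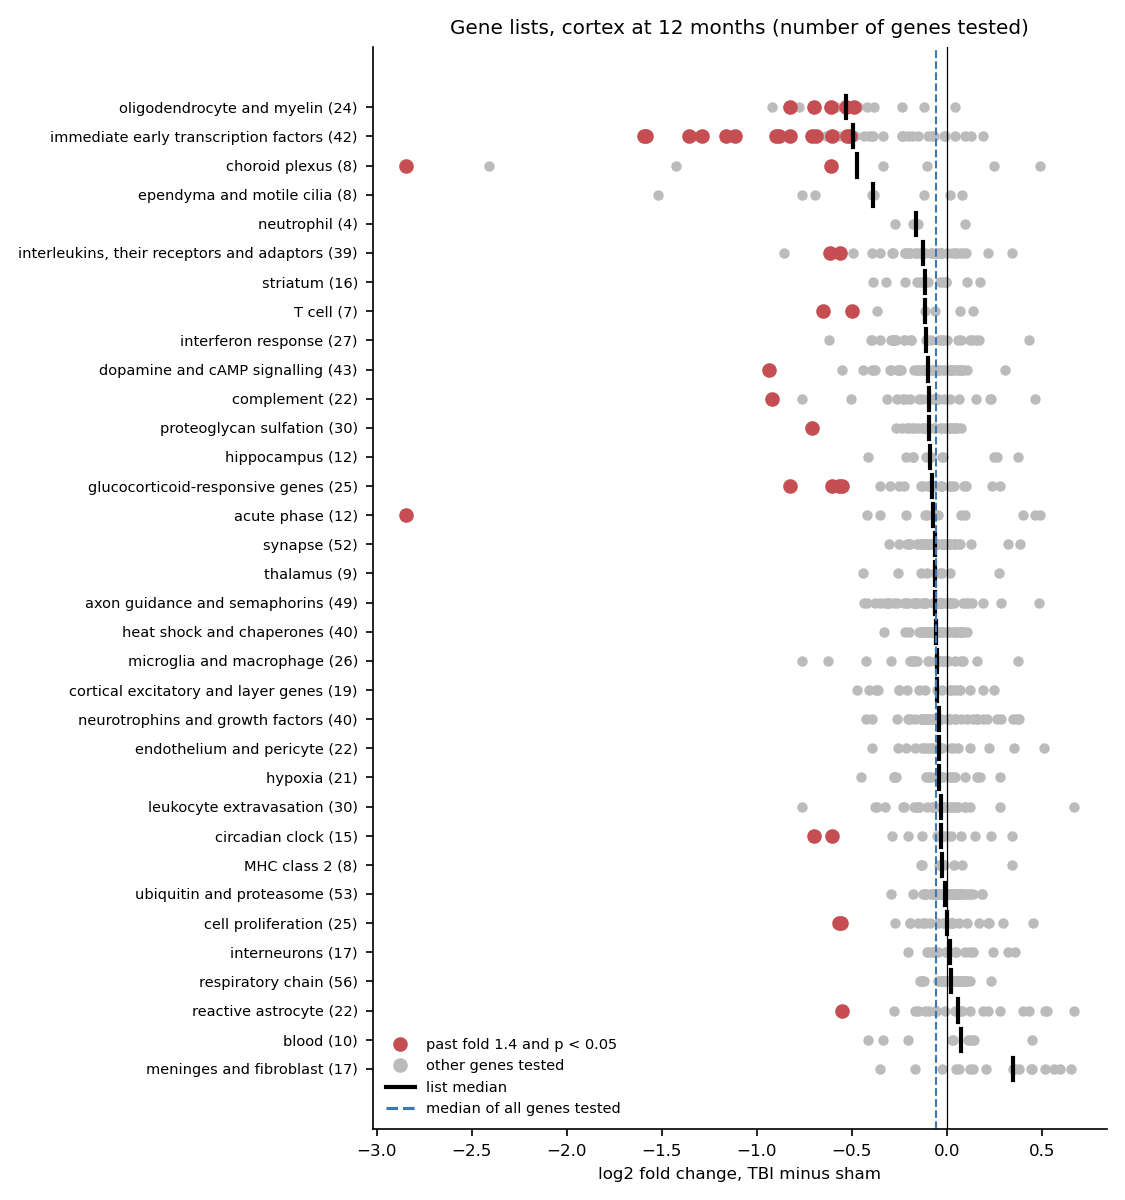
Difference between TBI and sham cortex for each tested gene of the 34 lists, in log2; red points passed a fold of 1.4 with an unadjusted p under 0.05, black bars are list medians, and the dashed line is the median of all genes. The oligodendrocyte and immediate early lists lie furthest to the left among lists of over 10 genes, and only the meningeal list, at 0.35, lies well to the right.

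Against naive cortex, which was on another slide, many probes passed an adjusted p under 0.05. Of 25212 probes 1143 separated sham from naive cortex (4.53%), 1077 of them higher in sham, and of 23148 probes 1223 separated TBI from naive cortex (5.28%), 800 higher and 423 lower in TBI. Read at 1 probe for each gene, 2.72% of genes separated sham from naive cortex. The comparisons share arrays with that of TBI and sham, so the values stand side by side only. In the immediate early list the median was 0.01 for sham against naive and -0.44 for TBI against naive cortex. Of its members Per1 fell by 0.77 (adjusted p = 0.0101, limma) and Ier2 fell by 1.08 (adjusted p = 0.0277) in TBI against naive cortex, where 2.1% of 10858 genes fell and 1.8% rose. None of the list passed between sham and naive cortex. Apold1 fell by 1.62 (adjusted p = 0.0124), Elf1 fell by 0.67 (adjusted p = 0.0022) and Ccl5 fell by 1.05 (adjusted p = 0.0066).

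In the myelin list the median was -0.29 for sham and -0.87 for TBI against naive cortex. Mbp fell by 0.95 (adjusted p = 0.0408) and the tight junction gene Cldn11 fell by 0.96 (adjusted p = 0.0398) in TBI against naive cortex. Stat3 was the reverse case: it rose in sham by 0.63 (adjusted p = 0.0056) and in TBI cortex by 0.47 (adjusted p = 0.0251) against naive cortex, while sham and TBI differed by -0.17.

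The same comparison in hippocampus at 12 months had other values for these genes. The immediate early list had a median of 0.04 in hippocampus and the myelin list one of 0.03, against -0.49 and -0.53 in cortex. Whether the injury effect differed from that in hippocampus was examined with an interaction term over 26147 probes, where 0 passed an adjusted p under 0.05, and 2314 had an unadjusted p under 0.05 (8.85%). Among them were 11 of the 42 immediate early genes and 10 of the 24 myelin genes. In hippocampus 24 of the 42 immediate early genes lay above 0. Of the 14 past the thresholds in cortex, 7 lay above and 7 below 0 in hippocampus, from -0.70 for Atf3 and -0.36 for Nr4a3 to 0.59 for Fosl2. Dusp6 differed by -0.25 and Apold1 by -0.71 in hippocampus. Fos differed by 0.16 between TBI and sham hippocampus, Egr2 by 0.45 and Fa2h by 0.45. The effect in cortex minus that in hippocampus was -1.75 (SE 0.61) for Fos, -2.05 (SE 0.66) for Egr2, -1.12 (SE 0.24) for Fosl2, -1.16 (SE 0.36) for Fa2h, -0.58 (SE 0.59) for Atf3, -0.26 (SE 0.23) for Dusp6 and -0.71 (SE 0.45) for Apold1. The choroid plexus list had a median of -1.06 in hippocampus, with 7 of its 8 genes below 0, and none of the 8 had an interaction p under 0.05.

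In cortex at 6 months the immediate early list had a median of -0.01, the myelin list one of 0.20 and the choroid plexus list one of 1.11. Lists near 0 at 12 months lay higher at 6 months, with 0.51 for microglia and macrophages, 0.39 for complement and 0.37 for the interferon response. Sham and TBI cortex of 6 months were on different slides, so slide and group cannot be told apart there. The difference of the injury effect between 12 and 6 months was tested over 25660 probes. It passed an adjusted p under 0.05 at 24 probes, all lower at 12 months, and 2851 probes had an unadjusted p under 0.05 (11.1%). In a fit that pairs arrays by replicate number, 8 passed the adjusted limit, and with 75th percentile scaling, without sham replicate 2 of 12 months or without sham replicate 3 of 6 months, 0 passed. The effect at these 24 probes ran from 0.36 to 3.64 at 6 months and from -1.55 to -0.09 at 12 months. The 11 named genes among them were Cfap45, Mlf1, Daw1, Cfap141, Ribc1, Lrrc46, Cuedc1, Prc1, Banf1, Fam89a and Aplf. Apart from Cfap45 and Cuedc1 these were named after their values were seen. Cfap45 differed by 1.43 at 6 months and by -1.48 at 12 months, and Cuedc1 by 1.01 and -0.68. Ttr differed by 5.30 at 6 months and by -2.85 at 12 months, a shift of -8.14 (SE 1.80). Immediate early genes with an unadjusted p under 0.05 for the interval were 7 of 42, Fos, Nr4a3 and Per1 among them, with shifts of -1.65 (SE 0.61), -1.31 (SE 0.54) and -0.59 (SE 0.24).

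**Figure D5:**
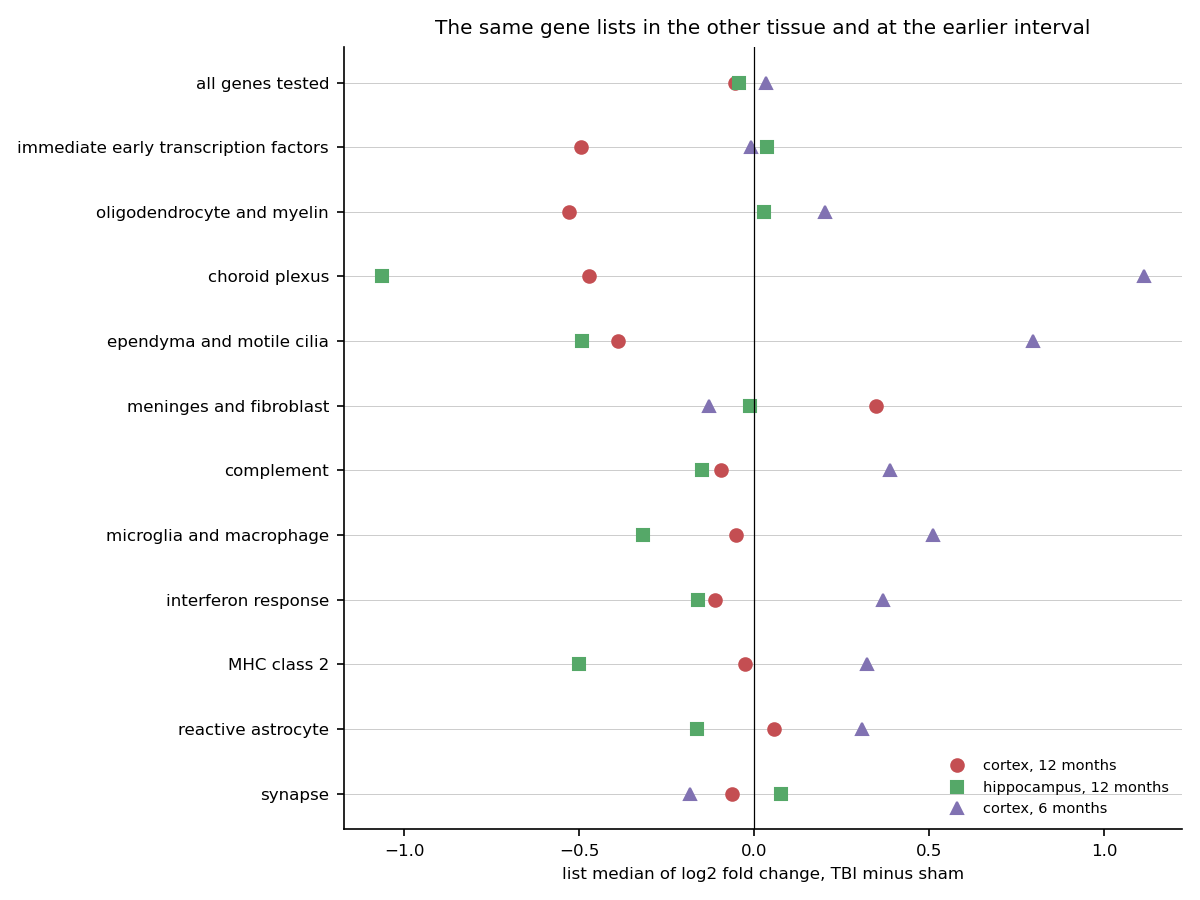
Median over each gene list of the log2 difference between TBI and sham, for cortex at 12 months (circles), hippocampus at 12 months (squares) and cortex at 6 months (triangles). The immediate early and myelin lists lie near -0.5 in cortex at 12 months and at 0.20 or closer to 0 elsewhere, and the choroid plexus list runs from -1.06 to 1.11.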

How the data were processed

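Cortex RNA was hybridised to single-colour Agilent arrays, and the authors deposited the scanner output of each array (Agilent Feature Extraction 11.5.1.1) and a table of normalized values. The deposited files give each spot's processed signal as an intensity, already corrected for background by the scanner software, beside other columns of flags. The deposited table matched the intensity divided by about the 75th percentile of each array, and entered only as an alternative. The 77 arrays of other tissues and intervals were not used.

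Spots flagged as outliers were left out where a probe had another spot, spots of a probe were averaged, and the log2 intensity was centred on the array median. Probes well above background on every array of either group compared were tested with limma 3.58.1 in R 4.3.3, in a model of the 4 TBI, 4 sham and 4 naive arrays, with Benjamini-Hochberg adjustment. The tissue and interval differences came from the same kind of model with an interaction. The number of arrays limits the precision. Probes were named through their RefSeq accession, and a gene was read from its brightest probe. The script was tested on simulated data.

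Named genes were the members of the 34 lists past a fold of 1.4 with p under 0.05, up to 15 lower and 10 higher genes past those thresholds without overlap of the groups, the 10 with the smallest p, and genes the study names for late intervals. Some of these are not reported here. The genes and lists were chosen with earlier results of these data known. TBI and sham arrays of the same replicate number lay in the same row of the slide, so row and number cannot be told apart. Their deviations from the group means correlated at 0.168, 0.181, 0.115 and 0.215. The main model took the arrays as unpaired, and a fit that pairs them by number was run as an alternative. Alternatives were other scalings, background corrections, filters and variance settings, only the arrays compared, pairing and the omission of each array.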

Additional observations from a re-analysis of the deposited data

Results flagged for a closer look

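Levels here are log2 over the array median. The groups of 4 arrays examined were those of each named gene and of the percent of probes well above background. In 14 of these 234 groups 1 array lay far from the other 3, where chance alone gives about 1 in 20. Among sham arrays these were C10h17orf75 in replicate 1 at 4.279, P2rx7 in replicate 2 at -0.2879, Ttr in replicate 1 at 10.21, Stat3 in replicate 1 at 2.527, Il10ra in replicate 1 at -0.6395 and Ribc1 in replicate 2 at 2.334. Among TBI arrays they were Grb7 in replicate 4 at -2.92, Fam107b in replicate 3 at -1.585 and Il10ra in replicate 1 at -2.681. Among naive arrays they were Elf1 in replicate 3 at 1.101, Fan1 in replicate 3 at 0.1995, Fa2h in replicate 3 at 6.045, Nr4a1 in replicate 2 at 7.725 and Dusp6 in replicate 2 at 6.609.

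The injury effect differed between 12 and 6 months at an adjusted p under 0.05 (limma interaction) for 11 named genes, each lower at 12 months. Apart from Cfap45 and Cuedc1 they were named after they had passed this test, so their number is no separate result. With 75th percentile scaling 0 probes passed it. Sham and TBI cortex of 6 months were on different slides. The difference between the intervals was -4.768 for Mlf1, -2.913 for Cfap45, -2.852 for Daw1, -1.778 for Prc1, -1.691 for Cuedc1, -1.277 for Fam89a, -0.9788 for Cfap141, -0.9264 for Lrrc46, -0.8595 for Ribc1, -0.8033 for Banf1 and -0.688 for Aplf. Mlf1 and Daw1 were too dim at 12 months to be tested there.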

How the results depend on the processing

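The median differences of the immediate early, myelin, choroid plexus and meningeal lists kept their sign under the 3 other scalings, the other background correction and no filter. The immediate early members past the thresholds numbered 12 or 13 under the other scalings and 20 with the replicate block. With the block, 0 probes passed the adjusted limit and 460 the thresholds of the study. The myelin count was 13 and the interval count 8. The list counts with the block were an alternative chosen after seeing the data. Sham against naive cortex gave 826 probes with the block and TBI against naive cortex 867. Probes past the thresholds numbered 58 higher and 214 lower with 75th percentile scaling, 59 and 216 from the deposited table, 145 (20 and 125) with normexp, 7583 (6973 and 610) without a filter, 205 (174 lower) with both groups well above background, and 14 higher where replicates lay within 50% of their mean. Myelin members past them were 2 with 75th percentile or quantile scaling or the deposited table, 13 with normexp and 3 without a filter. Sham against naive cortex gave 4002 probes with normexp and 7567 without a filter, and TBI against naive cortex 2376, 436 and, with only those groups in the fit, 787. The interval count of 24 became 0 with 75th percentile scaling, 14 with quantiles, 522 with normexp, 6540 without a filter, 11 with both groups well above background and 6 with trend and robust variance. Leaving out 1 array gave 0 to 3 probes at the adjusted limit, 331 to 776 past the thresholds (19 to 141 higher, 299 to 635 lower), 6 to 19 immediate early and 1 to 15 myelin members, 624 to 1189 for sham and 674 to 1148 for TBI against naive cortex, 0 to 2 for the tissues and 0 to 157 for the intervals. The deficit in probes well above background was -4.58 to -2.43 points, and -4.85 points by the software's positive and significant flag. Genes near 0 reversed: C3 to 0.0092 (75th percentile), 0.011 (quantiles) and 0.0079 (deposited table). Leaving out 1 array gave -0.25 to 0.31 for C3, positive without sham replicate 2, TBI replicate 1 or TBI replicate 3; -0.39 to 0.040 for Drd2, positive without sham replicate 2 or TBI replicate 4; -0.16 to 0.30 for Drd1, negative without sham replicate 3 or TBI replicate 2; and -0.085 to 0.26 for Hspb1, negative without sham replicate 3 or TBI replicate 4. Over the other settings 566 of 647 values of named genes kept their direction and side of the threshold, and 759 of 888 did when 1 array was left out. The cause of these shifts was not tested. Some dim genes had smaller differences with normexp: P2rx7 differed by -0.30, Ust by -0.14, Cuedc1 by -0.28 and Rab32 by 0.20. The correction was run on the median spot signal, an alternative chosen after seeing the data, since the mean was not used here.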

Other observations

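Vascular and growth factor genes were measured on the same arrays. Of 22 tested genes of endothelium and pericytes none passed a fold of 1.4 with an unadjusted p under 0.05 between TBI and sham cortex, and of 40 neurotrophins and growth factors none did. Of 21 hypoxia genes, 30 genes of leukocyte extravasation and 53 genes of ubiquitin and proteasome none did either. Of all genes 1.24% passed, so no pass in lists of these sizes is near that share. The summed level of 4 blood markers ranged from 1309 to 1513 in sham, from 901 to 2333 in TBI and from 1750 to 2473 in naive cortex, in multiples of the array median. The striatal markers, which would come with deeper tissue, summed to 41.5 to 58.1 in sham and 39.5 to 59.9 in TBI cortex, and the hippocampal markers to 73.6 to 98.9 and 71.0 to 98.7.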
